A study of Sesamum indicum with 6 samples.

Results

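Nitrogen and sulfur reach a leaf cell mainly as nitrate, amino acids and sulfate, and the genes described here encode the carriers and the first enzymes of both routes. They were chosen by product name, with earlier results of these data already known. A gene of the authors' annotated table was taken if its product text named the NRT1/PTR family, nitrate, nitrite reductase, an ammonium transporter, asparagine synthetase, an amino acid permease, a sulfate transporter, ATP sulfurylase or phosphosulfate reductase. This gave 104 genes of 20661 annotated and 25762 counted genes. They comprised 59 NRT1/PTR family genes (the family is also called NPF), 5 genes of high-affinity nitrate transport, 1 nitrate reductase, 1 nitrite reductase, 7 ammonium transporters, 3 asparagine synthetase genes, 12 amino acid permeases, 13 sulfate transporters and 3 ATP sulfurylases. No product text named phosphosulfate reductase.

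The RNA came from young leaves of sesame (Sesamum indicum) at 17 days of age. The plants belonged to recombinant inbred lines, which are near-homozygous mosaics of their parents, and were homozygous for SiCD-B, which contains the mutant kan1, or for SiCD-A, which contains the wild-type KAN1, on linkage group 8. Each group (SiCD_B and SiCD_A) had 19 plants and was sampled as 3 pools, each of RNA from 9 plants picked at random, which means that 3 pools of 19 plants overlap in their plants. A p-value here weighs a difference only against the spread of such overlapping pools, and differences between the groups at other loci cannot be told apart from the allele. Day and night temperatures were 28 and 22 °C for both groups, and the labels name no agent or stress.

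In plants, nitrate enters cells through NPF and NRT2 carriers, is reduced to nitrite in the cytosol and to ammonium in the plastid, and is then built into glutamine and glutamate. Asparagine synthetase moves the amide nitrogen of glutamine to asparagine, a main transport form of nitrogen whose synthesis in Arabidopsis is raised in the dark and when sugar is short. Amino acid permeases take amino acids into cells, often along the veins. Sulfate enters through its own transporters, is activated by ATP sulfurylase, reduced to sulfide and fixed into cysteine.

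Pools held 74331695 to 82165322 counts in SiCD_B and 56123250 to 74705569 in SiCD_A. The transcript of KAN1 itself (LOC105167765) stood at 53.8, 52.9 and 56.5 CPM in the SiCD_B pools, against 22.2, 20.7 and 25.2 CPM in the SiCD_A pools. It was higher in every SiCD_B pool (log2 fold change 1.26, SE 0.07, adjusted p = 3.33e-05). CPM are counts per 1000000 counts of a library after TMM scaling. They are not corrected for gene length, so they are compared only between pools and not between genes. In leaf pools that mix cell types, fewer cells of a type and less RNA per cell cannot be told apart. Of the 20 leaf photosynthetic markers (Rubisco small subunit and chlorophyll a-b binding proteins), 0 were at 0 in all pools, and their summed level was 21944 to 25833 CPM in SiCD_B and 21764 to 32804 CPM in SiCD_A. Casparian strip genes, which mark the root endodermis, summed to only 1.03 to 1.19 CPM in SiCD_B and 0.890 to 1.01 CPM in SiCD_A. They are part of a root list of 9 names that also holds ROOT HAIR DEFECTIVE 3 genes. That whole list summed to 148 to 149 CPM in SiCD_B and 151 to 157 CPM in SiCD_A.

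Most nitrogen and sulfur genes differed little between the alleles, and a few differed by a large factor. Of the 104 genes, 95 had enough reads to be tested and 9 did not, with 20 to 81 reads each over the 6 pools. In edgeR's quasi-likelihood test 11 rose and 22 fell in SiCD_B at an adjusted p under 0.05. These are 11.6% and 23.2% of the tested members, against 16.5% and 14.1% of all 21009 tested genes. The share called in either direction, 34.7%, was near the 30.6% of all genes. The median log2 fold change (SiCD_B minus SiCD_A, as for all that follow) was -0.15, against 0.01 over all tested genes. Changes of at least 2-fold were called for 5 higher and 3 lower members, against 1.26% and 1.68% of all genes (2.93% together). The pools did not overlap for 11 higher and 29 lower members, against 25.8% and 22.6% of all genes (48.4% together). By the authors' deposited table, 11 of the 104 were higher and 23 lower at an adjusted p under 0.05, where 15.6% and 16.1% of all its genes were (31.7% together). Many of the increases were not called with a single pool left out. Only 6 members rose without SiCD_A pool 1, and 5 without SiCD_A pool 2 or SiCD_B pools 1 or 2. Over all genes, calls of an increase also fell, from 3462 with 6 pools to between 2132 and 3118 with a pool left out. A lost call therefore does not show that the pool left out made the difference. Over all genes, 53.8% of calls were increases with TMM scaling and 67.5% with library size alone.

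The 4 largest called increases spanned an asparagine synthetase, a sulfate transporter, an amino acid permease and an NPF gene. The 3 largest called decreases were in 2 NPF genes and the nitrate reductase. All 4 of these increases were of genes with a mean under 1 CPM in the SiCD_A pools.

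**Figure D1:**
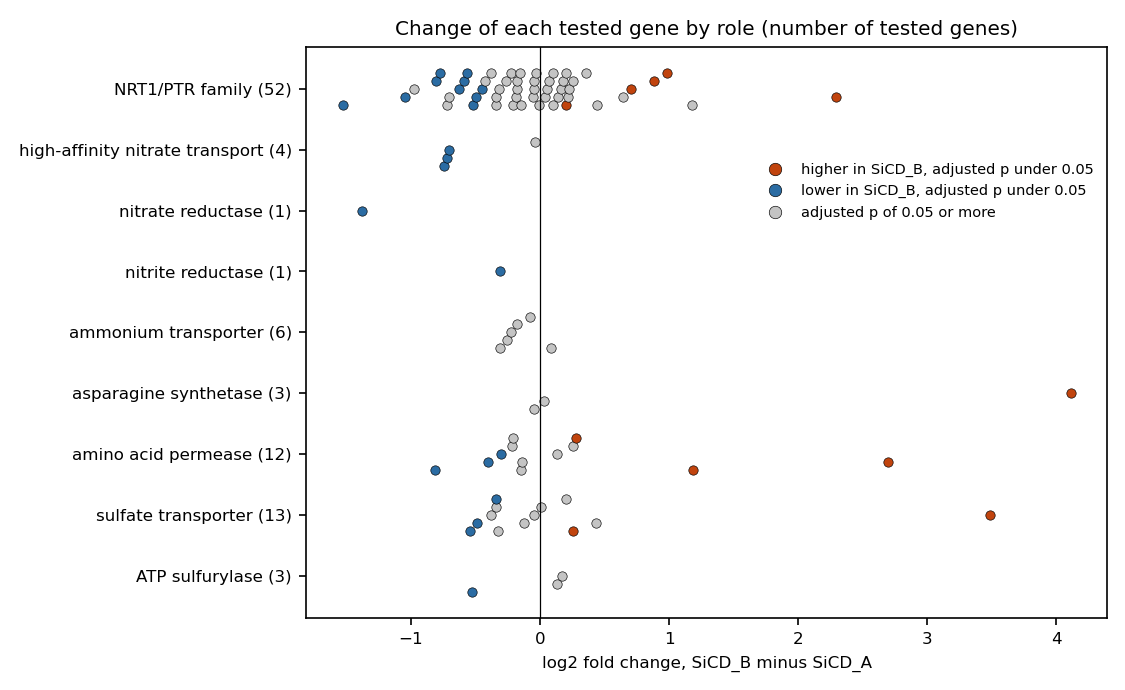
Log2 fold change of each of the 95 tested genes (SiCD_B minus SiCD_A) by role, with the number of tested genes in brackets and colour for the direction of a call in edgeR's test. Nitrate reduction and high-affinity nitrate transport hold only decreases among their calls, ammonium transporters hold no call, and the largest increase is an asparagine synthetase gene at 4.11.

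Transcripts of nitrate reduction were lower in SiCD_B at both steps. Nitrate reductase [NADH] 2 (LOC105176500, linkage group 2, coding segment 1200349 to 1201387), the cytosolic enzyme that turns nitrate into nitrite, stood at 31.9, 52.3 and 59.7 CPM in the SiCD_B pools, against 130.4, 111 and 132 CPM in the SiCD_A pools. Every SiCD_B pool was far below every SiCD_A pool, and SiCD_B pool 1 was the lowest. The log2 fold change was -1.38 (SE 0.25, adjusted p = 0.0140), a 2.59-fold lower level. Without SiCD_A pool 3 the adjusted p was 0.0618.

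Ferredoxin-nitrite reductase (LOC105169542, linkage group 8, 19616324 to 19616705), the plastid enzyme that turns nitrite into ammonium, stood at 105, 103 and 101 CPM in SiCD_B, against 129, 135 and 117 CPM in SiCD_A. The SiCD_B pools lay close together and below all SiCD_A pools. It fell by 0.31 on the log2 scale (SE 0.05, adjusted p = 0.00367), a smaller change than that of nitrate reductase, and the difference between both changes was not tested.

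Most genes of high-affinity nitrate transport also fell. Of 4 tested genes 3 were lower and 0 higher (75.0%, against 30.6% of all tested genes), with a median log2 fold change of -0.71. High affinity nitrate transporter 2.5 (LOC105156629), named for an Arabidopsis carrier that is active in nitrogen-starved plants, stood at 6.92, 7.98 and 10.2 CPM in SiCD_B, against 12.4, 12.0 and 16.5 CPM in SiCD_A. The groups did not overlap, and pool 3 was the highest of both. Its log2 fold change was -0.70 (SE 0.17, adjusted p = 0.0206).

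The genes named high-affinity nitrate transporter 3.1 are named for the accessory protein that NRT2 carriers need at the plasma membrane. Of these, LOC105168325 stood at 1.55, 1.22 and 1.59 CPM in SiCD_B, against 2.25, 2.16 and 2.77 CPM in SiCD_A (log2 fold change -0.72, SE 0.18, adjusted p = 0.0158). LOC105179368 stood at 1.52, 1.88 and 2.32 CPM in SiCD_B, against 3.14, 2.73 and 3.75 CPM in SiCD_A (log2 fold change -0.74, SE 0.19, adjusted p = 0.0186). The third copy, LOC110011727, had 14.8 ± 0.695 CPM in SiCD_B and 15.2 ± 0.609 CPM in SiCD_A (SD, n = 3 pools each), with overlapping pools and an adjusted p of 0.668. All 3 calls of this role were lost without SiCD_B pool 2, with adjusted p = 0.0810 for 2.5 and 0.0597 and 0.0632 for the 3.1-like genes. High affinity nitrate transporter 2.4 (LOC105170739) was too low to test, with 7, 10 and 6 reads in SiCD_B and 9, 28 and 21 reads in SiCD_A.

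**Figure D2:**
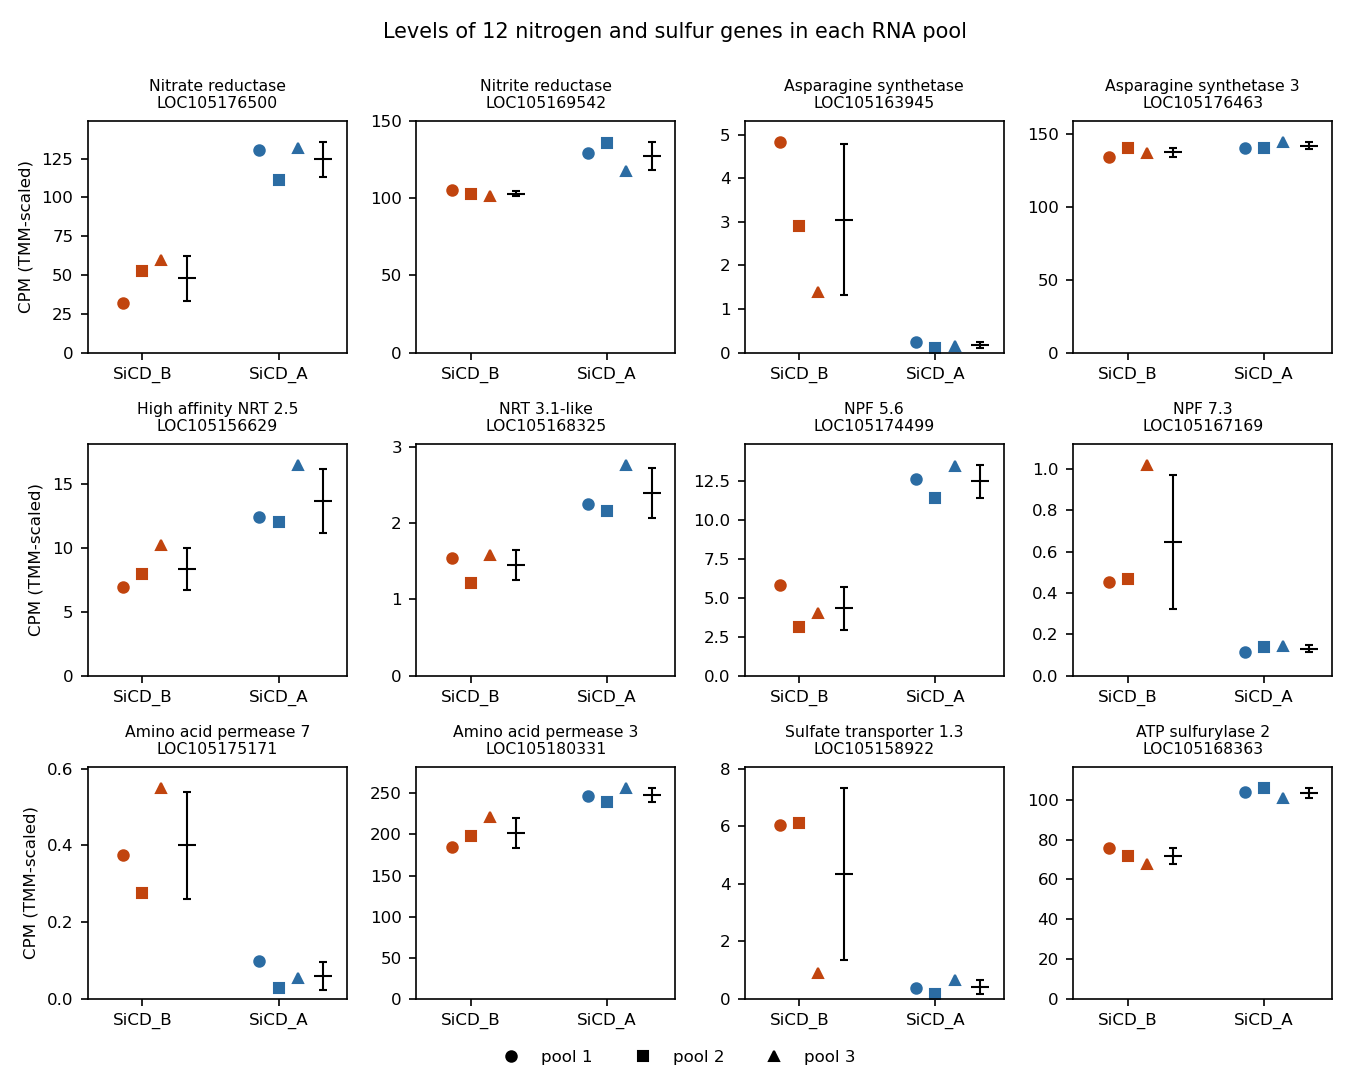
CPM (TMM-scaled) of 12 genes in each pool, with SiCD_B left of SiCD_A in every panel, a marker shape for each pool and the black bar for the mean ± SD of 3 pools. Nitrate reductase lies between 31.9 and 59.7 CPM in SiCD_B and between 111 and 132 CPM in SiCD_A, while asparagine synthetase 3 overlaps between the groups and the low asparagine synthetase gene is spread from 1.39 to 4.84 CPM in SiCD_B.

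The NPF genes, the largest role, held calls in both directions. Many NPF proteins carry nitrate, and members of the family in Arabidopsis also carry peptides, hormones or glucosinolates, so the name does not give the substrate in sesame. Of 52 tested genes 5 rose and 10 fell, 28.8% together against 30.6% of all tested genes, with a median log2 fold change of -0.10. Without SiCD_A pool 2 only 1 rose, without SiCD_B pools 1 or 2 only 2, without SiCD_A pool 1 only 3, and without SiCD_B pool 3 only 6 fell. By subfamily number, those called were 1 higher and 2 lower of 8 in subfamily 2, 2 and 2 of 11 in subfamily 4, 1 and 4 of 15 in subfamily 5, 0 and 2 of 5 in subfamily 6 and 1 and 0 of 3 in subfamily 7. In subfamilies 1, 3 and 8, 0 of 3, 0 of 3 and 0 of 4 tested genes were called in edgeR's test, DESeq2 and limma-voom also called 0, and 2 genes of subfamily 3 had an unadjusted p under 0.05.

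NPF5.6 (LOC105174499, linkage group 11, 14321840 to 14321975) had the largest decrease called among the 104 genes. It stood at 5.85, 3.15 and 3.996 CPM in SiCD_B, against 12.6, 11.4 and 13.5 CPM in SiCD_A. Each SiCD_B pool was below every SiCD_A pool, and SiCD_B pool 1 was the highest of its group. Its log2 fold change was -1.53 (SE 0.21, adjusted p = 0.00217). A gene with the same product name, LOC105164437 on linkage group 6, fell by 0.57 (SE 0.11, adjusted p = 0.00578). It stood at 5.50, 4.46 and 4.42 CPM in SiCD_B, against 7.07, 7.36 and 6.89 CPM in SiCD_A. Another of that name, LOC105161585, was not called, at -0.72 (SE 0.33, adjusted p = 0.131) with overlapping pools. NPF5.6-like (LOC105164438) was not called either, at -0.05 (adjusted p = 0.928). These last genes were named after their values were seen.

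NPF5.10-like (LOC105175373) had the smallest p among the 104 genes. Its level was 8.64, 7.32 and 7.57 CPM in SiCD_B, against 16.8, 14.9 and 16.7 CPM in SiCD_A, with tight pools on either side. The log2 fold change was -1.04 (SE 0.09, adjusted p = 0.000154). Its namesake NPF5.10 (LOC105175495), named here after its values were seen, was not called, at 0.06 (adjusted p = 0.468). NPF4.6-like (LOC105168767), named for an Arabidopsis carrier of nitrate and abscisic acid, stood at 9.05, 7.41 and 9.59 CPM in SiCD_B, against 13.1, 11.7 and 12.6 CPM in SiCD_A, and fell by 0.52 (SE 0.10, adjusted p = 0.00600).

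The other 6 lower NPF genes, named after their values were seen, were NPF2.10-like (LOC105168762), NPF2.13-like (LOC105168154), NPF4.6 (LOC105156563), NPF5.1 (LOC105160818), NPF6.2 (LOC105173496) and NPF6.3-like (LOC105164296), with log2 fold changes of -0.77, -0.45, -0.59, -0.50, -0.81 and -0.62. NPF6.3 is the Arabidopsis nitrate carrier and sensor also known as NRT1.1. NPF6.3-like stood at 11.6, 10.5 and 10.2 CPM in SiCD_B, against 20.7, 15.6 and 13.3 CPM in SiCD_A (adjusted p = 0.0204). The SiCD_A pools were widely spread, and the call was lost without SiCD_B pool 2 (adjusted p = 0.0794) or SiCD_B pool 3 (0.0718). The gene named NPF6.3 itself (LOC105155830), also named after its values were seen, was not called. It stood at 16.6, 12.5 and 15.4 CPM in SiCD_B, against 22.0, 18.4 and 15.8 CPM in SiCD_A. Its pools overlapped, and its log2 fold change was -0.34 (SE 0.14, adjusted p = 0.118). In the authors' deposited table it was lower, at an adjusted p of 0.0438. NPF2.13-like and NPF6.2 were not called when any pool but SiCD_A pool 3 was left out, nor NPF5.1 without SiCD_A pools 1 or 2 or SiCD_B pools 2 or 3 (adjusted p = 0.0508 to 0.1097).

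The largest increase of an NPF gene was in NPF7.3 (LOC105167169, linkage group 1), named for an Arabidopsis gene that loads nitrate into the xylem of roots. It had 35, 39 and 78 reads in SiCD_B, against only 8, 10 and 8 reads in SiCD_A. In CPM this was 0.452, 0.467 and 1.02 in SiCD_B, against 0.113, 0.137 and 0.142 in SiCD_A. SiCD_B pool 3 was the highest, and the log2 fold change was 2.30 (SE 0.45, adjusted p = 0.00571). LOC105155943, also named NPF7.3, was not called, at -0.38 (SE 0.51, adjusted p = 0.609). NPF7.3-like (LOC105174225) was not called either. These genes were named after their values were seen.

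The other 4 increases were smaller. NPF4.3 genes rose by 0.71 (LOC105169054, SE 0.20, adjusted p = 0.0294) and 0.98 (LOC105172503, SE 0.29, adjusted p = 0.0325), and NPF2.7 (LOC105170340) rose by 0.88 (SE 0.22, adjusted p = 0.0154). NPF2.7 is named for an Arabidopsis gene of nitrate efflux. It stood at 1.79, 2.25 and 1.64 CPM in SiCD_B, against 1.28, 0.890 and 0.905 CPM in SiCD_A. It overlaps a protein-coding gene in the RefSeq table, LOC105170341, which was not called. That gene had 1390 to 1741 reads in SiCD_B and 1141 to 1571 in SiCD_A, and reads of both cannot be told apart where they overlap. NPF5.7 (LOC105164315) stood at 93.6, 79.4 and 81.7 CPM in SiCD_B, against 74.4, 70.9 and 76.2 CPM in SiCD_A, which is 0.20 on the log2 scale (SE 0.06, adjusted p = 0.0425). All 4 calls were lost in some fits that left out a single pool. That of NPF2.7 went without SiCD_A pool 2 or SiCD_B pool 2 (adjusted p = 0.0586 and 0.0673). The NPF4.3 genes lost theirs without SiCD_A pools 2 or 3 or SiCD_B pools 1 or 2 (0.0513 to 0.104), and LOC105172503 also without SiCD_A pool 1 (0.0986) and with limma-voom (0.0618). NPF5.7 was called with SiCD_B pool 2 left out but not with any other pool left out (0.0540 to 0.145), nor with DESeq2 size factors (0.0527) or upper-quartile factors (0.0541).

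Ammonium transporters did not pass the test. Of 6 tested genes 0 were called by edgeR, 0 had an unadjusted p under 0.05, and DESeq2 and limma-voom also called 0. Their log2 fold changes lay between -0.31 and 0.08, with 5 of 6 below 0 and a median of -0.20. The 7 genes of this role summed to 190 to 214 CPM in SiCD_B and 215 to 235 CPM in SiCD_A. Ammonium transporter 2 (LOC105161519) had 75.4, 72.8 and 78.5 CPM in SiCD_B, against 77.6, 73.3 and 87.8 CPM in SiCD_A. Its pools overlapped, and its log2 fold change was -0.07 (SE 0.07, adjusted p = 0.425). Without SiCD_A pool 3, 1 ammonium transporter fell.

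Beyond the genes chosen by name, 65 further nitrogen genes were listed by product words, of which 5 rose and 14 fell (29.2% together, against 30.6% of all tested genes), with a median log2 fold change of -0.12. Those that fell numbered 9 without SiCD_A pools 1 or 2, also 9 without SiCD_B pool 3, and 7 without SiCD_B pool 2. The list is of names, and its word for glutamate synthase also took in 2 folylpolyglutamate synthases. Glutamine synthetase, which fixes ammonium, held 0 calls among 5 genes, with 0 at an unadjusted p under 0.05 and 0 by DESeq2 or limma-voom. Both genes of the partner enzyme fell. Ferredoxin-dependent glutamate synthase (LOC105159899) had 1383 ± 125 CPM in SiCD_B and 1747 ± 49.9 CPM in SiCD_A (SD, n = 3), which is -0.34 on the log2 scale (SE 0.08, adjusted p = 0.0104). NADH glutamate synthase 1 (LOC105160371) had 444 ± 23.2 CPM in SiCD_B and 545 ± 9.98 CPM in SiCD_A, which is -0.29 on the log2 scale (SE 0.05, adjusted p = 0.00379). Glutamate dehydrogenase B (LOC105159631), which can release ammonium from glutamate, fell by 0.95 (SE 0.13, adjusted p = 0.00142), while the other 3 dehydrogenase genes were not called.

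NLP proteins are transcription factors that switch on nitrate-responsive genes in Arabidopsis. Of 7 NLP genes 1 rose and 2 fell (42.9% together, against 30.6% of all tested genes). NLP5-like (LOC105158884) rose by 0.32 (adjusted p = 0.00638). NLP2 (LOC105169857) had -0.45 (adjusted p = 0.0141) and NLP9 (LOC105158751) had -0.26 (adjusted p = 0.0354). NLP9 was called with SiCD_B pool 1 left out but not with any other pool left out (0.0564 to 0.125), nor with library size alone (0.0691). The P-II homolog (LOC105163011), a plastid sensor of carbon and nitrogen state, rose to 90.4 ± 2.66 CPM in SiCD_B, against 74.2 ± 1.85 CPM in SiCD_A (adjusted p = 0.00147).

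**Figure D3:**
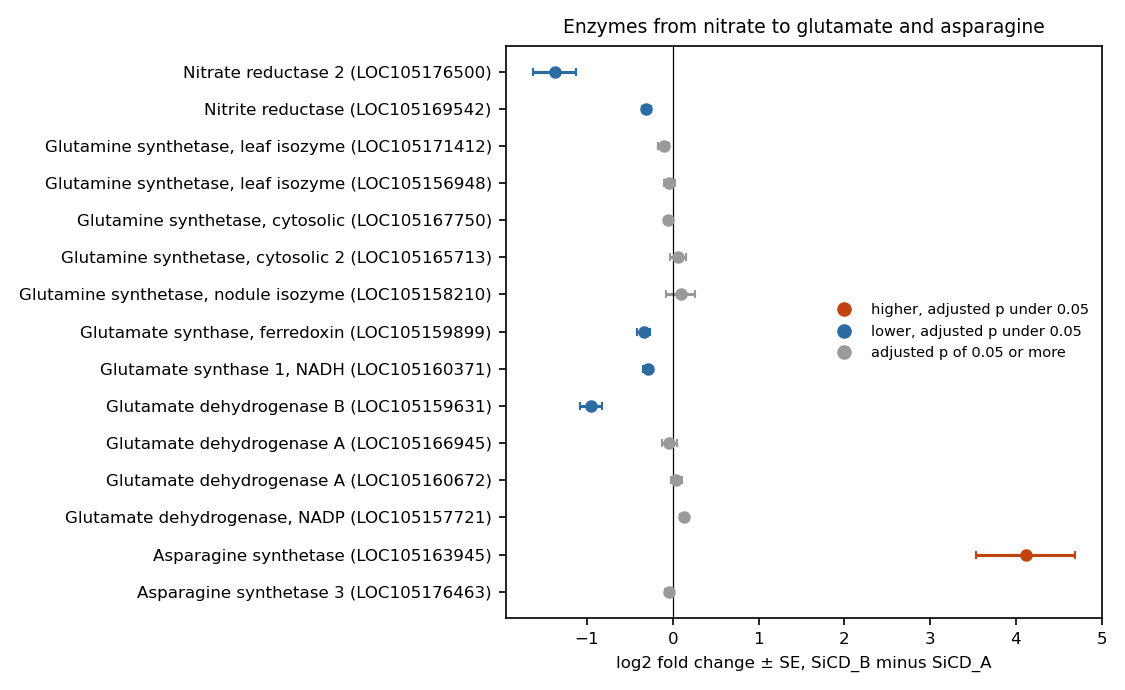
Log2 fold change ± SE (SiCD_B minus SiCD_A) of enzymes from nitrate to glutamate and asparagine, with colour for the direction of a call in edgeR's test. Nitrate reductase at -1.38, nitrite reductase and both glutamate synthases lie left of 0, the 5 glutamine synthetases lie around 0, and 1 of 2 asparagine synthetases lies far to the right.

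One asparagine synthetase gene had the largest increase among the 104 genes. LOC105163945 (linkage group 6, 7122350 to 7122429) had 375, 243 and 106 reads in the SiCD_B pools, against 18, 8 and 9 reads in the SiCD_A pools. In CPM this was 4.84, 2.91 and 1.39 in SiCD_B, against 0.253, 0.1096 and 0.160 in SiCD_A. The SiCD_B pools differed 3.49-fold among themselves, with pool 3 the lowest, yet each was several times above every SiCD_A pool. The log2 fold change was 4.11 (SE 0.57, adjusted p = 0.00258), and it stayed called in each of the 14 alternatives, at adjusted p up to 0.0285.

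The other asparagine synthetase genes were not called. Asparagine synthetase 3 (LOC105176463) had 134, 141 and 138 CPM in SiCD_B, against 141, 141 and 145 CPM in SiCD_A (log2 fold change -0.05, SE 0.04, adjusted p = 0.383). The domain-containing protein 1 gene (LOC105179817) had 20.9 ± 1.39 CPM in SiCD_B and 20.4 ± 0.800 CPM in SiCD_A (SD, n = 3, adjusted p = 0.738). Because the gene that rose is low, the summed level of the 3 genes was 158 to 166 CPM in SiCD_B and 161 to 167 CPM in SiCD_A. Of 3 asparaginase genes, whose enzymes release the amide again, 1 rose and 1 fell (66.7% together, against 30.6% of all tested genes). LOC105168507 rose by 0.44 (SE 0.08, adjusted p = 0.00350) and LOC105159151 had -1.60 (SE 0.33, adjusted p = 0.00764).

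Amino acid permeases were called in both directions. Of 12 tested genes 3 rose and 3 fell (50.0% together, against 30.6% of all tested genes). Among these 6 calls, 4 were in genes with the product name amino acid permease 7, which most of the 12 carry. The 4 called genes of that name sit in 2 runs of adjacent genes, and in both runs the first gene rose and the last fell. How often such runs occur over all genes was not counted. On linkage group 12, LOC105175171 had 29, 23 and 42 reads in SiCD_B, against 7, 2 and 3 reads in SiCD_A, which is 2.70 on the log2 scale (SE 0.53, adjusted p = 0.00589).

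Its neighbour LOC105175019 was not called (log2 fold change 0.26, SE 0.13, adjusted p = 0.175). The third gene of that run, LOC105175021, stood at 4.89, 4.24 and 5.46 CPM in SiCD_B, against 8.69, 6.53 and 10.5 CPM in SiCD_A, and fell by 0.81 (SE 0.18, adjusted p = 0.00985). The pools of both called genes were fully apart, in opposite directions. LOC105175021 overlaps 2 other annotated genes in the RefSeq table, a long non-coding RNA with 13 to 16 reads in SiCD_B and 18 to 26 in SiCD_A, and LOC105175022, which was not called.

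On linkage group 14 the changes were smaller. LOC105176557 (286718 to 287036) stood at 1.33, 1.02 and 1.24 CPM in SiCD_B, against 0.619, 0.438 and 0.515 CPM in SiCD_A, which is 1.19 on the log2 scale (SE 0.24, adjusted p = 0.00662). LOC105176558 had -0.21 (SE 0.11, adjusted p = 0.171). LOC105176559 stood at 18.0, 13.7 and 17.0 CPM in SiCD_B, against 22.3, 19.97 and 22.3 CPM in SiCD_A, and fell by 0.41 (SE 0.10, adjusted p = 0.0181), a call lost without SiCD_A pool 1 (0.0618). How the counting treats reads shared by such similar copies is not given in the sources used here, so the levels of single copies are uncertain.

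**Figure D4:**
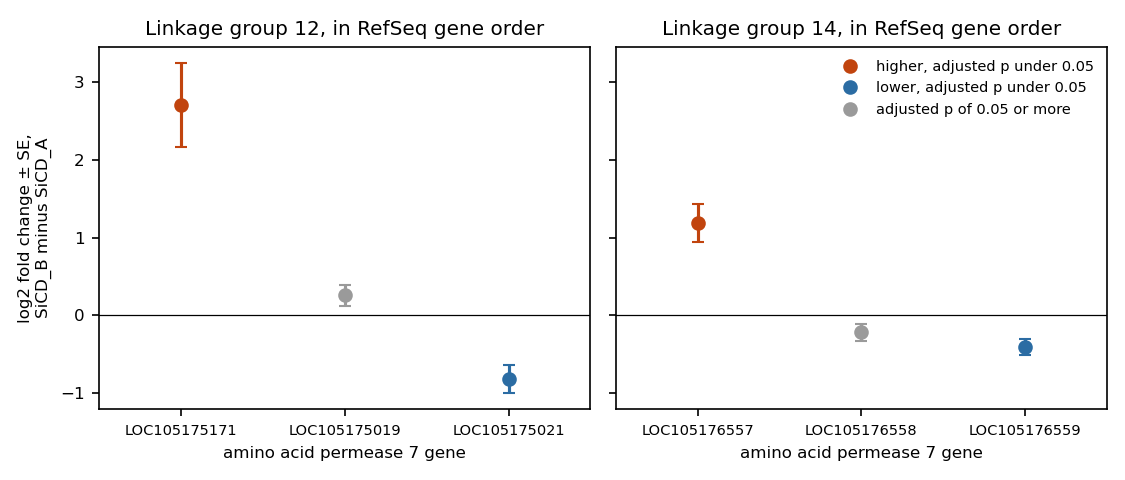
Log2 fold change ± SE (SiCD_B minus SiCD_A) of 3 adjacent amino acid permease 7 genes on each of linkage groups 12 and 14, in RefSeq gene order. In both runs the first gene lies above 0, at 2.70 and 1.19, and the third below, at -0.81 and -0.41.

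Amino acid permease 3 (LOC105180331), named for an Arabidopsis gene expressed in the veins, stood at 185, 198 and 221 CPM in SiCD_B, against 247, 239.6 and 257 CPM in SiCD_A. All SiCD_B pools were lower, by a modest amount (log2 fold change -0.30, SE 0.07, adjusted p = 0.00906). Amino acid permease 2-like (LOC105178035) was called higher at 0.28 (SE 0.09, adjusted p = 0.0462), but its pools overlapped. It was called with SiCD_B pool 3 left out but not with any other pool left out (0.0653 to 0.143), nor with limma-voom (0.0551), DESeq2 size factors (0.0540) or upper-quartile factors (0.0519). Without SiCD_A pool 3, 5 permeases fell.

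Of other amino acid carriers in the nitrogen list, 1 lysine histidine transporter gene rose and 2 fell of 10 (30.0% together). Among 8 cationic amino acid transporter genes 1 rose and 1 fell (25.0% together), where 30.6% of all tested genes were called. Lysine histidine transporter-like 8 (LOC105166215) had 26.0 ± 0.772 CPM in SiCD_B and 16.4 ± 1.93 CPM in SiCD_A (SD, n = 3), an increase of 0.66 (adjusted p = 0.000742). A gene of the same product name, LOC105169832, went the other way, at -1.01 (adjusted p = 0.00600). Cationic amino acid transporter 7 (LOC105160995) had 9.75 ± 0.381 CPM in SiCD_B and 4.69 ± 1.54 CPM in SiCD_A, an increase of 1.05 (adjusted p = 0.0129).

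Fold changes of sulfate transporters were mostly small, apart from a single gene. Of 13 tested, 2 rose and 3 fell (38.5% together, against 30.6% of all tested genes), with a median log2 fold change of -0.12. Sulfate transporter 1.3 (LOC105158922, linkage group 3, 20088623 to 20088946), named for a high-affinity carrier of the phloem in Arabidopsis, had 470, 510 and 68 reads in the SiCD_B pools, against 26, 13 and 37 reads in the SiCD_A pools. In CPM this was 6.07, 6.10 and 0.891 in SiCD_B, against 0.366, 0.178 and 0.657 in SiCD_A. SiCD_B pools 1 and 2 stood far above the rest, while SiCD_B pool 3 was close to SiCD_A pool 3.

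The log2 fold change of this gene was 3.49 (SE 0.93, adjusted p = 0.0440). It was called with SiCD_B pool 3 left out but not with any other pool left out (adjusted p = 0.0873 to 0.126), nor by limma-voom (0.202) or with no filter (0.0625). A long non-coding RNA, LOC110011722, overlaps it in the RefSeq table, and had 286, 290 and 13 reads in SiCD_B, against 6, 3 and 16 reads in SiCD_A. It too was high in SiCD_B pools 1 and 2 and low in the other 4 pools, and was not called. The library kit does not mark strand, so reads of both genes cannot be told apart where they overlap.

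The adjacent low affinity sulfate transporter 3 gene, LOC105158923, was not called, with 63, 67 and 45 reads in SiCD_B and 67, 73 and 46 reads in SiCD_A (adjusted p = 0.321).

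**Figure D5:**
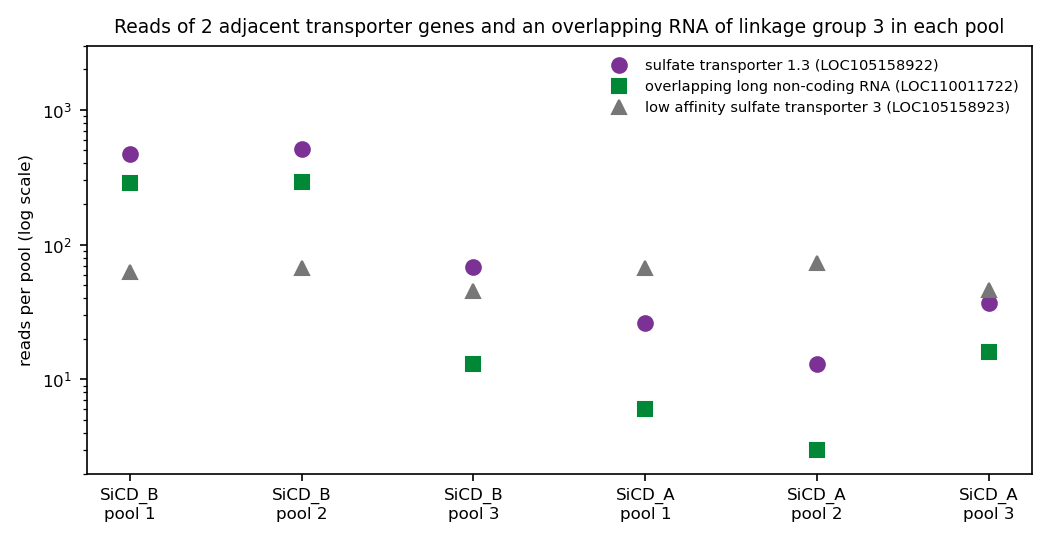
Reads per pool (log scale) of sulfate transporter 1.3, of the long non-coding RNA that overlaps it and of the adjacent low affinity sulfate transporter 3 gene, SiCD_B pools left of SiCD_A pools. The first 2 are high in SiCD_B pools 1 and 2 and low in SiCD_B pool 3 and in all SiCD_A pools, whereas the third lies between 45 and 73 reads throughout.

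The second gene named sulfate transporter 1.3, LOC105172596, went down. It stood at 19.3, 14.1 and 15.9 CPM in SiCD_B, against 24.3, 21.3 and 26.3 CPM in SiCD_A (log2 fold change -0.54, SE 0.12, adjusted p = 0.0132). Sulfate transporter 1.2 (LOC105176891) stood at 11.2, 10.6 and 11.4 CPM in SiCD_B, against 14.7, 13.97 and 17.8 CPM in SiCD_A (log2 fold change -0.48, SE 0.10, adjusted p = 0.00593). Its neighbour on linkage group 2, low affinity sulfate transporter 3 (LOC105176882), fell by 0.34 (SE 0.09, adjusted p = 0.0171). In all 3 genes every SiCD_B pool was below every SiCD_A pool.

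Of these, LOC105172596 lost its call without SiCD_B pool 3 (0.0505) and LOC105176882 without SiCD_A pool 2 (0.0580) or SiCD_B pools 2 (0.0529) or 3 (0.0599), so that 1 sulfate transporter fell without SiCD_B pool 3. Sulfate transporter 3.1 (LOC105163301) rose, with 41.3, 42.4 and 37.6 CPM in SiCD_B, against 34.1, 36.2 and 31.0 CPM in SiCD_A (log2 fold change 0.26, SE 0.07, adjusted p = 0.0215). Leaving out SiCD_A pool 1 (0.0633), SiCD_B pool 1 (0.0562) or SiCD_B pool 2 (0.0848) ended this call, and with any of these left out 0 sulfate transporters rose. Sulfate transporter 4.1 (LOC105171921), named for an Arabidopsis carrier that moves sulfate out of the vacuole, had 61.4 ± 4.93 CPM in SiCD_B and 63.6 ± 6.92 CPM in SiCD_A (SD, n = 3, adjusted p = 0.710).

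ATP sulfurylase, which activates sulfate as its adenylyl ester, fell in 1 of 3 genes and rose in 0. This share called, 33.3%, was near the 30.6% of all tested genes. ATP sulfurylase 2 (LOC105168363, linkage group 8, 12236539 to 12237101) stood at 75.8, 71.7 and 67.6 CPM in SiCD_B, against 104, 106 and 101 CPM in SiCD_A. The groups were well apart, and the log2 fold change was -0.53 (SE 0.05, adjusted p = 0.000243). The chloroplast-type genes were not called, LOC105171289 with 57.6 ± 3.09 CPM in SiCD_B and 52.6 ± 7.87 CPM in SiCD_A (SD, n = 3, adjusted p = 0.392) and LOC105158413 near 1 CPM (adjusted p = 0.639).

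Further along the sulfur route, 36 genes were listed by product words, of which 1 rose and 8 fell (25.0% together, against 30.6% of all tested genes), with a median log2 fold change of -0.02. Without SiCD_A pool 1 or SiCD_B pool 2 only 4 fell, and without SiCD_A pool 2 or SiCD_B pool 3 only 5. Adenylyl-sulfate kinase 3 (LOC105158590) was the gene that rose, by 0.24 (adjusted p = 0.0233). It was not called without SiCD_A pools 1 or 2 or SiCD_B pools 2 or 3 (0.0623 to 0.0923), and 3 genes rose without SiCD_B pool 3. Genes with the words adenylylsulfate reductase, the step after ATP sulfurylase, held 0 calls among 4. Of these, 0 had an unadjusted p under 0.05, and DESeq2 and limma-voom called 0. The words also took in LOC105159031 and LOC105170592, named adenylylsulfate reductase-like, a name that does not give their activity. Serine acetyltransferase 1 (LOC105174954), which makes the carbon acceptor for sulfide, had 27.4 ± 0.367 CPM in SiCD_B and 36.7 ± 2.03 CPM in SiCD_A (SD, n = 3), which is -0.42 on the log2 scale (SE 0.05, adjusted p = 0.000717). Cysteine synthase fell in 2 of 5 genes, LOC105158804 with -0.24 (adjusted p = 0.0102) and LOC105171352 with -0.20 (adjusted p = 0.0117).

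The largest change of the sulfur list was in sulfite oxidase (LOC105176249), which turns sulfite back into sulfate. It stood at 2.22, 1.75 and 1.97 CPM in SiCD_B, against 8.76, 8.05 and 7.10 CPM in SiCD_A, which is -2.01 on the log2 scale (SE 0.13, adjusted p = 6.54e-05). Genes named for their response to sulfur shortage were not called, 0 of 2 RESPONSE TO LOW SULFUR genes and 0 of 2 SULFUR DEFICIENCY-INDUCED genes in edgeR's test, with 0 at an unadjusted p under 0.05. DESeq2 called 1 of each pair and limma-voom 0. The largest of these log2 fold changes was 0.67, for SULFUR DEFICIENCY-INDUCED 1 (LOC105163506, adjusted p = 0.120).

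By position, 99 of the 104 genes lie on the 16 linkage groups and 5 on sequences without one. Of the 99, 10 overlap another annotated gene, among them the called genes NPF4.6 (LOC105156563) and LOC105168325. The 14 genes on linkage group 8 held 1 increase and 6 decreases, where 14.6% and 13.9% of all tested genes of that group were called higher and lower. The 15 genes on linkage group 2 held 0 increases and 7 decreases, where 15.4% and 15.8% were. The nearest of them to KAN1 on linkage group 8, NPF4.6 (LOC105168147), lies 4.97 Mb away and was not called. Nitrite reductase and ATP sulfurylase 2 lie 14.6 and 7.17 Mb away.

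Members within 5 genes of each other in RefSeq order made 24 pairs. In 2 pairs both were called in the same direction, in 3 they were called in opposite directions, in 12 only 1 was called and in 7 neither. Of all tested genes 30.6% were called. Pairs of neighbours were not counted over all genes, so these counts are only a description. A call in only 1 gene of a pair does not show that both genes differ in their change, which was not tested. The NPF2.10-like gene that fell (LOC105168762) sits beside NPF2.11 (LOC105168760), whose log2 fold change was 0.14.

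Among the 75 genes with a mean of at least 1 CPM, the highest pool was in the median 1.21 times the lowest within SiCD_B and 1.21 times within SiCD_A. Sulfate transporter 1.3 had the widest range in either group, 6.85-fold in SiCD_B and 3.69-fold in SiCD_A. Amino acid permease 3-like (LOC105159451), named after its values were seen, stood at 61.2, 79.6 and 83.3 CPM in SiCD_B, against 48.9, 48.2 and 108 CPM in SiCD_A. SiCD_A pool 3, the shallowest library, was above all other pools, and the gene was not called (adjusted p = 0.819). NPF5.5 (LOC105174545), also named after its values were seen, was also highest in SiCD_A pool 3, with 29.9, 45.0 and 46.6 CPM in SiCD_B, against 29.8, 32.0 and 56.8 CPM in SiCD_A.

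Of the marker lists, that of dividing cells differed in most of its genes. Of 72 tested genes of dividing cells (histones and A-type, B-type or mitotic cyclins) 57 were higher and 1 lower, 80.6% together, against 30.6% of all tested genes. The words also matched 2 other genes, a histone chaperone (LOC105177476), which was not called, and calcyclin-binding protein (LOC105175713), which was the gene called lower. The summed level of the list was 6930 to 7654 CPM in SiCD_B and 4300 to 5032 CPM in SiCD_A, with 0 of 73 genes at 0 in all pools. Of 11 phloem genes (sieve element occlusion and phloem protein 2 names) 8 were lower and 0 higher, 72.7% against 30.6% of all tested genes. They are a part of the vascular list chosen after the data were seen, so this share is only a description. They summed to 175 to 206 CPM in SiCD_B and 227 to 254 CPM in SiCD_A. The short word PP2 of the whole vascular list of 34 also matched phosphatases, F-box PP2 genes and other names. That list summed to 1189 to 1215 CPM in SiCD_B and 1158 to 1213 CPM in SiCD_A. Its tested genes were higher in 5 and lower in 10 of 33 cases (45.5% together). The 5 increases all lay outside the phloem names. Of 20 leaf photosynthetic markers 1 was called higher and 3 lower, against 16.5% and 14.1% of all tested genes. Their log2 fold changes were below 0 in 16 and above 0 in 4, with a median of -0.32. DESeq2 called 7 of them and limma-voom 3. Their summed level was 32804 and 31558 CPM in SiCD_A pools 1 and 2. It was 21764 CPM in SiCD_A pool 3, against 21944 to 25833 CPM in SiCD_B. Of senescence names 0 were higher and 1 lower of 4. Of 7 tested root names 0 were called, with 0 at an unadjusted p under 0.05 and 0 by DESeq2 or limma-voom. The part of these lists in the changes of the nitrogen and sulfur genes was not tested.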

How the data were processed

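Young-leaf RNA of 6 pools was sequenced as pairs of 100 bases from TruSeq version 2 libraries, per the labels' protocols. Named in the submitters' processing notes are STAR, HTSeq, SAMtools, DESeq2, Trim Galore and FastQC 0.11.4, while the build is not given in the sources used here. Raw counts were deposited as whole reads for each gene, without normalization. The authors' deposited table adds product names, a coding segment, a normalized signal per pool, log2 fold changes and adjusted p-values for 20661 genes. Each coding segment lay inside the gene of that name in the RefSeq table of S_indicum_v1.0, which gave linkage groups, gene order and overlaps. No sequences were used here.

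SiCD_B minus SiCD_A was tested on the counts of 6 pools by edgeR 4.0.16 (R 4.3.3), using TMM scaling, filterByExpr and robust quasi-likelihood fits. Adjusted p-values are Benjamini-Hochberg values over 21009 genes, and a call is a value under 0.05. An SE is the size of the log2 fold change divided by the square root of F. Alternatives used DESeq2 1.42.0, limma 3.58.1, other scalings and filters, a block and leaving out each pool. The fit was also run on simulated counts drawn independently for each pool, which cannot show how it behaves with pools that share plants. Figures used matplotlib 3.10.9. Totals of 56123250 to 82165322 counts put the limit that 0 counts allow (3 counts) at 0.0365 to 0.0535 CPM before scaling, which covers counting error alone. Within groups, pools differed by more than sampling noise, at 5.32 to 30.4 chi-square units per degree of freedom, and each pool was kept as a sample.

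The members, lists and tests were chosen with earlier results of these data known. Genes named were, in each role, every gene of a role with 5 or fewer tested genes, otherwise the 4 calls of smallest p in each direction and the gene of highest CPM, plus the 3 largest changes in each direction and the neighbours of these genes. The added lists match product words. Their genes were named as examples after their values were seen.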

Additional observations from a re-analysis of the deposited data

How the results depend on the processing

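Of 33 called nitrogen and sulfur genes, 4 of 11 higher and 11 of 22 lower ones kept their call in each of the 14 alternatives that tested them. A CPM of at least 1 in 3 pools left 7 higher members and 3 higher NPF genes, by testing fewer genes. The higher sulfate transporters numbered 1 with no filter, with a CPM of at least 1, with limma-voom and with the replicate block. With library size alone the other nitrogen list had 8 higher and 7 lower and the other sulfur list 5 lower, and the share of higher among all calls was 67.5%, against 53.8% in the TMM fit. DESeq2's test gave 3 higher other sulfur genes. The cause was not tested.

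Pool number as a replicate block gave 7181 calls against 6433, 0 lower nitrate reductases (adjusted p = 0.0562), 1 lower ammonium transporter and 5 higher other sulfur genes. Deviations of same-numbered pools correlated at only 0.0701, 0.00909 and 0.0565 over genes, each the highest for its pool, a hint from the data and not the design, so the numbers were not taken as pairs.

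Leaving out each pool gave 2132 to 3118 higher and 1787 to 2895 lower genes in all, the lowest without SiCD_B pool 2, and 5 to 11 higher and 15 to 26 lower members. The ranges were 1 to 5 higher and 6 to 12 lower for NPF, 0 to 1 lower for nitrate reductase, 2 to 5 lower for permeases, 0 to 2 higher and 1 to 4 lower for sulfate transporters, 0 to 4 lower for high-affinity nitrate transport, 0 to 1 lower for ammonium transporters, 5 to 7 higher and 7 to 13 lower for other nitrogen genes and 0 to 3 higher and 4 to 9 lower for other sulfur genes. Sulfate transporter 4.1 (LOC105171921) lay between -0.14 and 0.012 with a pool left out, above 0 without SiCD_A pool 3 (0.012) or SiCD_B pool 3 (0.0044), and LOC110011727 turned to 0.0059 with library size alone. Neither gene was called. Reads of low genes limit what can be seen, since 9 members could not be tested.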
